A study of Mus musculus with 4 samples.

Results

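Neutrophils are drawn into inflamed tissue by chemokines and can be followed in bulk RNA through a small set of transcripts. The genes examined here were 10: the chemokine genes Cxcl1, Cxcl2 and Cxcl5, the receptor genes Cxcr2, Csf3r and Trem1, and S100a8, S100a9, Lcn2 and Retnlg, whose products neutrophils store or secrete. The members were taken by name, as every probe set annotated to one of these symbols alone. This gave 12 probe sets of 45101 on the array and 9 of the 10 genes, out of 18193 genes with such a probe set. No probe set was annotated to Retnlg alone, so Retnlg, a resistin-like protein of mouse neutrophils, was not analysed here.

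Total RNA was taken from the whole eyeball with its tumour, in C57BL/6 mice of both sexes aged more than 7 weeks. In both groups 10000 E.G7-OVA cells, a mouse T lymphoma line that makes ovalbumin and here also luciferase, were placed in the anterior chamber of the eye, and eyes were taken on day 15. The intact group (2 arrays) had no surgery and the splenectomized group (2 arrays) had the spleen removed before the injection. The labels do not give the sex of each mouse, and no eye without a tumour was among the arrays. Animals are not numbered in the labels, so it is not known that each eye is from a different mouse, and the p-values measure the spread between these arrays only.

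CXC chemokines with a glutamate-leucine-arginine motif, among them the products of Cxcl1, Cxcl2 and Cxcl5, bind the receptor CXCR2 on neutrophils and direct their migration. Granulocyte colony-stimulating factor acts through the receptor encoded by Csf3r to keep neutrophils in production and alive. S100a8 and S100a9 encode the subunits of calprotectin, an abundant cytosolic protein complex of neutrophils, and Lcn2 encodes lipocalin 2, which binds bacterial siderophores. Several of these genes are not particular to neutrophils: macrophages make CXCL2, and stressed epithelium makes calprotectin and lipocalin 2.

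The promoters of 9 of the 10 genes are in the RefSeq table (build GRCm38.p6), and Cxcl5 is not among them. Each window was searched on both strands over the 250 bases before its listed transcription start. For Csf3r and Trem1 this start is downstream of the annotated gene start. Their windows thus lie inside the Csf3r gene and partly inside the Trem1 gene. The search was for a motif of the NF-kappaB type (GGNNTTTCC) and a motif of the C/EBP type (TTGCNNAA). NF-kappaB is the factor through which interleukin 1 and tumour necrosis factor induce chemokine genes, and C/EBP factors act in myeloid cells. The letters were chosen with these promoters in view. The kappaB type was found in Cxcl1 and Cxcl2 of the 9 windows, at 2 places in each. Of all 32851 windows of this length, 4.93% held it at least once and 0.198% at 2 or more places. The C/EBP type was found in 3 of the 9 windows (S100a9, Lcn2 and Retnlg), once each, against 9.56% of all windows. No window held both motifs. The Cxcl1 and Cxcl2 windows are shown because Cxcl2 and 2 of the 3 Cxcl1 probe sets had the highest fold changes among the chemokine probe sets. The other Cxcl1 probe set had the lowest. The S100a9 and Lcn2 windows are shown because they hold the other motif. Capitals mark the matched letters, and sequences run 5′ to 3′ on the strand of the gene.
Cxcl1, chr5:90890995-90891244, plus strand: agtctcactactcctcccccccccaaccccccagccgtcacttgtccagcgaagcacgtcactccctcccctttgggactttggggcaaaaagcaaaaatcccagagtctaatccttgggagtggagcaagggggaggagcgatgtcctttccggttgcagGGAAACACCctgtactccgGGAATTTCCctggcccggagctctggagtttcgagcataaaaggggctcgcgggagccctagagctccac
Cxcl2, chr5:90903649-90903898, plus strand: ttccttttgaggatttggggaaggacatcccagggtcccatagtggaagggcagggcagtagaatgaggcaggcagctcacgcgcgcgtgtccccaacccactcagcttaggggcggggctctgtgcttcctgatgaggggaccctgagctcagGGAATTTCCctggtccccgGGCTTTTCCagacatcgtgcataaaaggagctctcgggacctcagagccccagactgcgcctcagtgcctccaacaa
S100a9, chr3:90695722-90695971, minus strand: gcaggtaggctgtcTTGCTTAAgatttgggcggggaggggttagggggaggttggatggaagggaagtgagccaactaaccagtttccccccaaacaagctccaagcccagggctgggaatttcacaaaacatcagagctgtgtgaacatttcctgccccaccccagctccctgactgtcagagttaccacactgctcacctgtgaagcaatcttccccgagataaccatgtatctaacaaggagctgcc
Lcn2, chr2:32387740-32387989, minus strand: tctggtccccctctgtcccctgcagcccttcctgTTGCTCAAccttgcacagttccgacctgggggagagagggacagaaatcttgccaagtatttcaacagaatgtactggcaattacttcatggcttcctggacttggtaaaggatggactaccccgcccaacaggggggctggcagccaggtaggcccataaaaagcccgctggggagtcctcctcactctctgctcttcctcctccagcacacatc
In Cxcl1 the matches began 89 and 70 bases before the start, and in Cxcl2 96 and 77 bases before it. One match in each gene had the same 9 letters. A match is a description of these letters and not a binding site, and the arrays did not measure binding.

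Splenectomized mice had the higher signal on all 12 member probe sets. In each of them both splenectomized arrays lay above both intact arrays. Of all 26285 probe sets tested, 20.0% were separated in this way and in this direction. The median log2 fold change of the 9 genes was 0.78, a 1.72-fold higher signal, and the genes ranged from 0.50 to 1.61. The median over all 13148 genes tested was 0.05, and 55.1% of them were higher. Of the 12 probe sets, 6 had an unadjusted p under 0.05 in limma, where 5.49% of all probe sets had one and were higher. Of the 12, 0 passed an adjusted p of 0.05, and 0% of all probe sets did (smallest adjusted p 0.203 for the members, 0.134 for all). All 12 passed the detection filter, which asks for a Present call on at least 2 of the 4 arrays, and 11 were Present on all 4.

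**Figure D1:**
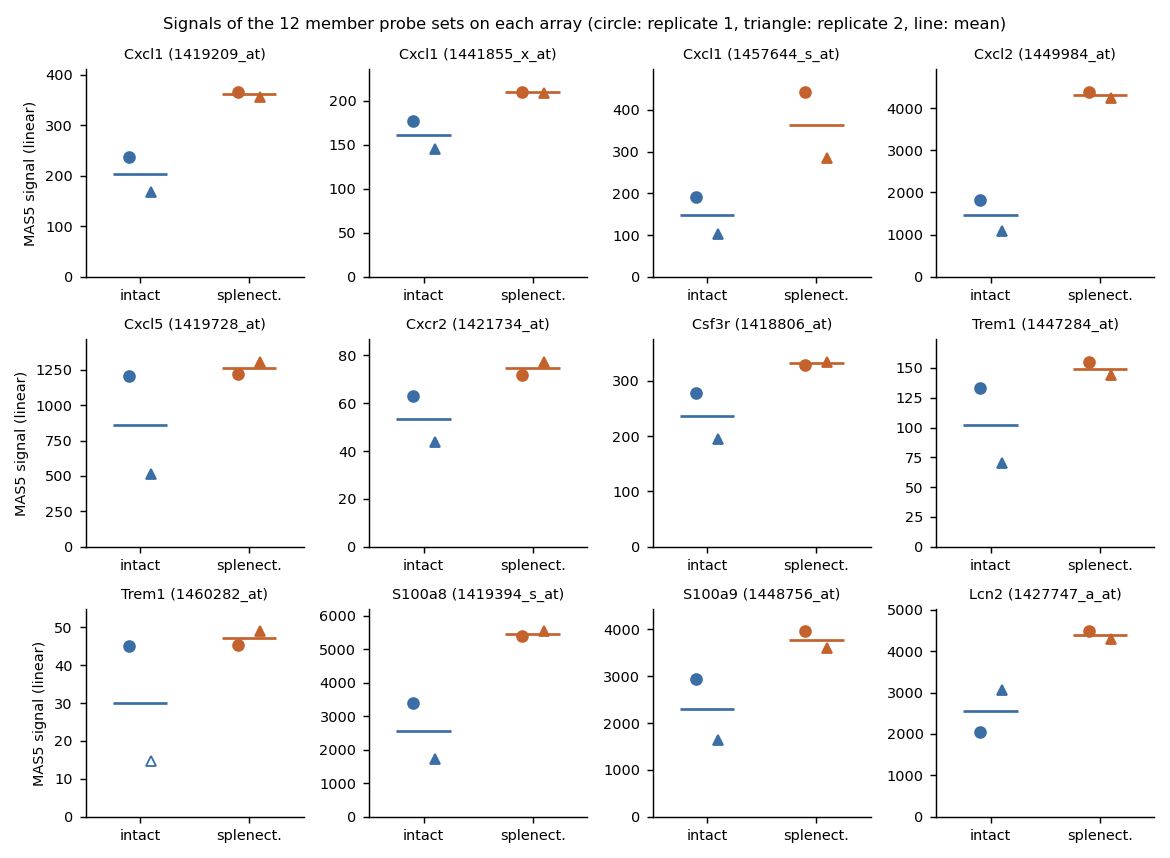
MAS5 signal (linear axis from 0) of each member probe set on the 2 intact and 2 splenectomized arrays, with a line at the group mean, circles for replicate 1, triangles for replicate 2 and an open symbol for an Absent call. The splenectomized arrays lie above both intact arrays in all 12 panels, and intact replicate 2 is the lowest array in 11 of them, Lcn2 being the exception.

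Cxcl2 had the largest fold change of the members and 1 of the 3 Cxcl1 probe sets the next, while Cxcl5 was below S100a8, S100a9 and Lcn2. Cxcl2, which encodes a chemokine made early by activated macrophages, had signals of 1818 and 1091 on intact replicates 1 and 2 and of 4391 and 4238 on splenectomized replicates 1 and 2. The splenectomized pair was close together and far from either intact array. The fold change was 3.06 (log2 1.61, standard error 0.26, unadjusted p = 0.00102, adjusted p = 0.203 in limma). Only 0.776% of tested probe sets had a larger log2 fold change.

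Cxcl1, the other chemokine gene with 2 kappaB-type matches above, was read by 3 probe sets that differed in size. On 1419209_at its signals were 237 and 169 in intact and 367 and 357 in splenectomized mice, a fold of 1.81 (adjusted p = 0.401). On 1457644_s_at they were 191 and 104 against 444 and 284, 2.52-fold higher (adjusted p = 0.474). On 1441855_x_at they were 178 and 145 against 211 and 209, 1.31-fold higher (adjusted p = 0.663). The direction was shared and the groups did not overlap on any of the 3, but the splenectomized pair itself differed 1.57-fold on 1457644_s_at. The suffixes _s_at and _x_at mark probe sets whose probes can match more than one transcript.

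Cxcl5, which encodes a chemokine made by epithelial and stromal cells, had signals of 1203 and 517 in intact and 1219.8 and 1308 in splenectomized mice. Intact replicate 1 thus stood next to the splenectomized arrays, so the groups were separated by a margin that the spread does not resolve. Most of the fold change came from intact replicate 2. The fold change was 1.60 (adjusted p = 0.696), with a 95% interval of the log2 difference from -0.29 to 1.65. Against intact replicate 1 alone the fold was 1.05, and against intact replicate 2 alone 2.45.

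By the brightest probe set of each gene, the receptor genes had the smallest fold changes of the measured members. Cxcr2, the receptor for these chemokines, had signals of 63.2 and 43.7 in intact and 71.8 and 77.4 in splenectomized mice, a fold of 1.42 (adjusted p = 0.69). Csf3r had 277 and 195 against 329 and 335, 1.43-fold higher (adjusted p = 0.627). Both genes had their lowest signal on intact replicate 2, and for both the 95% interval of the log2 difference included 0. Trem1 encodes a receptor that amplifies Toll-like receptor signalling in neutrophils and monocytes and was read by 2 probe sets. On 1447284_at the signals were 133 and 70.6 in intact and 155 and 144 in splenectomized mice, a fold of 1.54 (adjusted p = 0.685). On 1460282_at they were 45.2 and 14.8 against 45.4 and 48.9, with an Absent call on intact replicate 2, 1.82-fold higher (adjusted p = 0.717). On the second probe set intact replicate 1 was within 0.2 of splenectomized replicate 1, so it separated the groups by a margin that the spread does not resolve.

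S100a8 had the largest difference among the genes that are not chemokines. Its signals were 3403 and 1712 in intact and 5382 and 5524 in splenectomized mice, a fold of 2.26 (log2 1.18, standard error 0.33, unadjusted p = 0.0129, adjusted p = 0.484). Its partner S100a9 had 2948 and 1637 against 3952 and 3606, 1.72-fold higher (adjusted p = 0.586). The intact arrays differed from each other 1.99-fold for S100a8, less than the groups did, and 1.80-fold for S100a9, more than the groups did.

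Lcn2 went against the others within the intact pair. Its signals were 2041 and 3058 in intact and 4473 and 4292 in splenectomized mice, a fold of 1.75 (unadjusted p = 0.0117, adjusted p = 0.474). Here intact replicate 1 was the lowest of the 4 arrays. Against intact replicates 1 and 2 alone the folds were 2.15 and 1.43.

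Intact replicate 2 set much of the size of these differences. It was lower than intact replicate 1 in 11 of the 12 member probe sets, where 42.8% of all tested probe sets were lower on it. The median log2 difference between intact replicates 1 and 2 was 0.74 over the 9 genes and -0.09 over all tested probe sets. The splenectomized arrays lay within 1.2-fold of each other on 11 of the 12 probe sets. Over all tested probe sets, the SD of their log2 difference was 0.47, against 0.74 for the intact pair. Against the intact arrays taken alone, the lower of the 2 folds ranged from 1.04 (Trem1, 1460282_at) to 2.37 (Cxcl2). It was at least 1.5 for Cxcl2, S100a8 and 2 of the 3 probe sets of Cxcl1. The share of all tested probe sets at this limit was not counted. Without intact replicate 2 the median log2 fold change of the 9 genes was 0.36, and without intact replicate 1 it was 1.10. All 12 probe sets were higher in each of these fits.

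**Figure D2:**
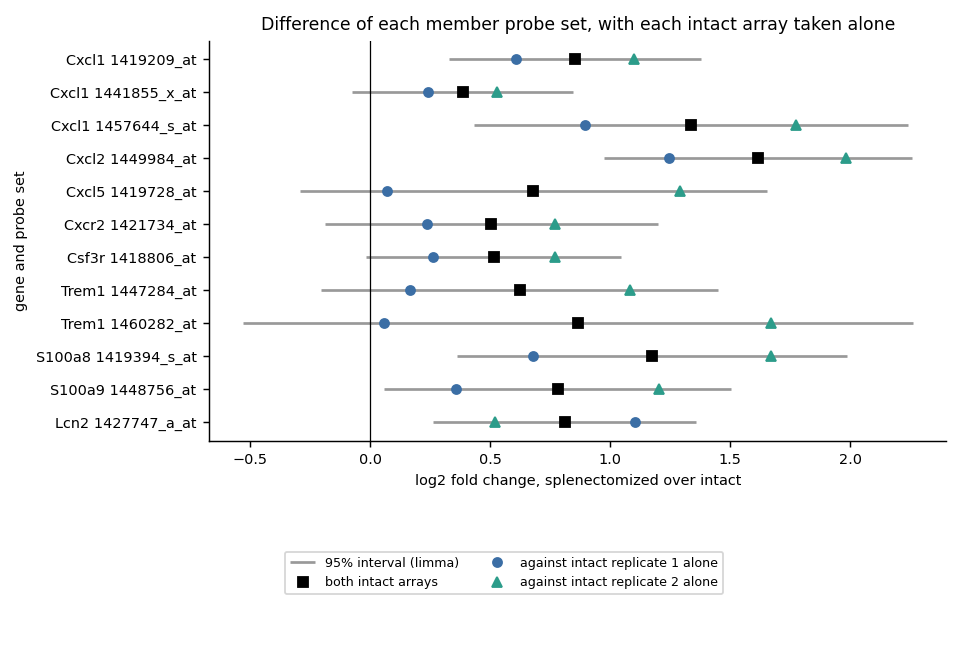
Log2 fold change of each member probe set, splenectomized over intact, with both intact arrays (squares, with the 95% interval of limma as a line) and against intact replicate 1 (circles) or 2 (triangles) alone. Cxcl5 and the Trem1 probe set 1460282_at come close to 0 against replicate 1 (1.05-fold and 1.04-fold), while Cxcl2 is at 2.37-fold and 3.95-fold.

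**Figure D3:**
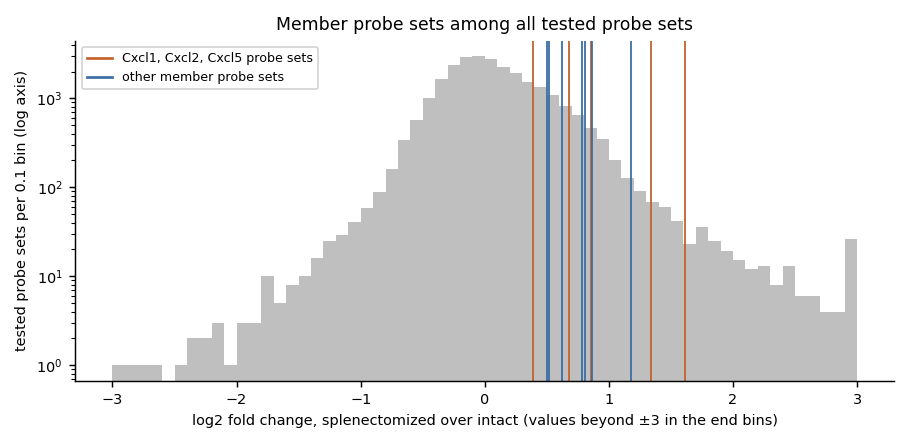
Number of tested probe sets (log axis) by log2 fold change in bins of 0.1, with vertical lines at the 12 member probe sets, chemokine ligands in orange and the others in blue. The members lie to the right of 0, where 0.776% (Cxcl2) to 21.9% (Cxcl1, 1441855_x_at) of tested probe sets have larger values.

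The intact arrays also differed in tissue content. Of 8 genes of lens, retina and pigment cells, 7 were detected, and all 7 had lower signals on intact replicate 1 than on replicate 2. Cryaa, a lens crystallin, had 1564 and 4791 on intact replicates 1 and 2 and 4905 and 4225 on splenectomized replicates 1 and 2. The summed signals of the 7 genes were 8801 and 23994 in intact and 24386 and 19858 in splenectomized mice. Krt12, a keratin of corneal epithelium, was at 407 and 1648 in intact and 843 and 720.1 in splenectomized mice. Of the 6 corneal markers 5 were detected, 3 higher and 2 lower, and Pax6, an eye transcription factor, was at 123 and 426 against 386 and 266. Of 6 genes shared by T cells and the lymphoma, 5 were detected, with sums of 11845 and 8303 in intact and 8325 and 9560 in splenectomized mice. Among them Cd3e, part of the T cell receptor complex, was at 435 and 283 against 281 and 280.3. All 7 eye tissue genes had the higher mean log2 signal in splenectomized mice with overlapping groups, and all 5 T cell genes the lower. Of these 5 only Cd3e had no overlap, where 19.7% of all genes were lower with none. Against intact replicate 2 alone its fold was 0.99, so the groups were separated by a margin that the spread does not resolve. Of the corneal markers Krt14, a keratin of basal epithelium chosen after its values were seen, was higher with no overlap, at 2544 and 3148 against 4010.4 and 3600 (unadjusted p = 0.0469, adjusted p = 0.61 in limma). The part of these cell types in the member values was not tested. In whole-eye RNA, fewer cells of a type and less RNA per cell cannot be told apart.

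Other genes of neutrophils were described in 3 lists by stage. Of 20 genes of the surface and cytosol of mature neutrophils, 15 were tested. All 15 were higher in splenectomized mice, 12 with no overlap (21.7% of all genes tested) and 11 at an unadjusted p under 0.05 (7.07% of all genes), and none at the adjusted threshold. Their median log2 fold change was 0.80. Fpr2, a receptor for formylated peptides and lipoxins, was at 605 and 350.4 in intact and 1213 and 1140.2 in splenectomized mice (adjusted p = 0.289). Alox5ap, needed to make leukotrienes, was at 844 and 890.0 against 1579 and 1439 (adjusted p = 0.22). The lectin gene Clec4d was at 2063 and 1533 against 3238 and 3219. Several of these genes, Alox5ap and Clec4d among them, are also expressed by macrophages.

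Genes of granules behaved less uniformly. Of 8 genes of secondary and tertiary granules, 7 were tested, and 6 were higher and 1 lower. The lower one was Ltf, at 346 and 199 in intact and 257 and 190 in splenectomized mice, with overlapping groups. One of the 6, Ngp, was Absent on both intact arrays and passed the detection filter only through the splenectomized arrays. Mmp8, the neutrophil collagenase, was the only one of the 7 with no overlap, where 21.7% of all genes were higher with none. It was at 61.5 and 83.1 in intact and 153 and 139 in splenectomized mice, a fold of 2.04 (adjusted p = 0.366 in limma). Hp, the haptoglobin gene, was at 589 and 194 against 465 and 609, with overlapping groups. Of the 4 primary granule genes, which neutrophil precursors in the bone marrow transcribe, only Ctsg was tested, at 12.5 to 20.0 on the 4 arrays. Mpo and Elane were Absent on all 4 arrays, and Prtn3 was Present on 1.

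Among 5 further chemokine ligands and receptors of the CXCR2 system, 3 were tested. All 3 had the higher mean log2 signal in splenectomized mice, but only Cxcl3 had no overlap (21.7% of all genes were higher with none). Cxcl3 was at 988 and 545 in intact and 1854 and 1454 in splenectomized mice, 2.24-fold higher with no overlap (adjusted p = 0.457). Ppbp, a chemokine gene of platelets, was at 2697 and 397 against 1554 and 1059, and the intact pair enclosed the splenectomized pair. Its linear mean was lower in splenectomized mice, at 1307 against 1547 in intact mice. Ackr1, a chemokine-scavenging receptor of venules and red cells, was at 160.1 and 212 against 190 and 202, a fold of 1.06 with overlapping groups. The 6 platelet markers had 2 detected, and Pf4 was at 1375 and 836 against 1439 and 1262, and Itga2b, a platelet integrin, at 54.6 and 83.4 against 86.9 and 96.9. Ppbp and Pf4 were both at their lowest on intact replicate 2.

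All 8 tested members of a list of inducers and NF-kappaB targets were higher, 6 with no overlap (21.7% of all genes) and 5 at an unadjusted p under 0.05 (7.07% of all genes), with a median log2 fold change of 0.58. Nfkbia, the inhibitor that NF-kappaB itself induces, was at 3011 and 2586 in intact and 3979 and 3880.3 in splenectomized mice (adjusted p = 0.512). Zfp36, which destabilises chemokine transcripts, was at 250.3 and 242 against 525 and 422 (adjusted p = 0.25). The receptor gene Tnfrsf1a was at 395 and 391 against 673 and 567. These 3 genes had close values on the intact arrays, while Il1b of the same list was at 1768 and 886 on them.

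Of 15 genes of granulopoiesis, 12 were tested, and 8 were higher and 4 lower with overlapping groups. The 4 lower genes were Gfi1, Il17a, Il17ra and Cxcr4. Gfi1 was at 473 and 298 in intact and 335 and 397 in splenectomized mice. Il17a was at 76.2 and 164 against 89.8 and 87.9. Il17ra was at 936 and 649 against 551 and 704. Cxcr4 was at 774 and 498 against 529 and 571. Of the 12 tested, 7 were higher with no overlap, against 21.7% of all genes tested. Likewise 7 of the 12 were higher at an unadjusted p under 0.05 in limma, against 7.07% of all genes tested. No gene of this list was lower at an unadjusted p under 0.05, against 2.41% of all genes, or lower with no overlap, against 19.7%. Csf3, the ligand of the receptor encoded by Csf3r, was at 36.8 and 34.6 in intact and 73.6 and 60.2 in splenectomized mice, a fold of 1.87 (adjusted p = 0.503). Il6, a cytokine that drives granulopoiesis in infection, was at 149 and 72.5 against 386 and 239, 2.93-fold higher (adjusted p = 0.457). Csf3 and Il6 were chosen after their values were seen. Cxcl12, a chemokine that retains neutrophils in bone marrow, was at 781 and 547 against 1118 and 1212 (adjusted p = 0.404). Socs3, a feedback inhibitor of this receptor, was at 1347 and 1271 against 2041 and 1805 (adjusted p = 0.436). Cebpb, a transcription factor of emergency granulopoiesis, was at 2197 and 1520.0 against 3003 and 2833.

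Partners of the other members were listed by protein. All 4 tested sensors of calprotectin were higher with no overlap (21.7% of all genes), and 1 of them, Cd14, had an unadjusted p under 0.05 (7.07% of all genes). Cd14, a coreceptor of Toll-like receptor 4, was at 1052 and 567 in intact and 1712 and 1593 in splenectomized mice (adjusted p = 0.476), and the adaptor gene Myd88 at 499 and 418 against 609 and 530.2. Of 5 tested partners of Trem1, Trem2 passed the detection filter only through the splenectomized arrays. The other 4 were higher, 3 with no overlap, against 21.7% of all genes. Tyrobp, which encodes the signalling adaptor DAP12 of TREM1, was at 1677 and 1380.4 against 2821 and 2886 (adjusted p = 0.22), and Trem2, a related macrophage receptor, at 45.1 and 58.7 against 107 and 109.7, with Absent calls on both intact arrays. Of 5 lipocalin receptor and resistin family genes, 3 were tested, 1 higher and 2 lower, all with overlapping groups. Slc22a17, a receptor for lipocalin 2, was at 45.3 and 104 against 128 and 80.7. Retnla, a resistin-like gene of alternatively activated macrophages, was at 109 and 233 against 124 and 88.9.

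The neutrophil genes were set beside markers of other cells that could carry the same transcripts. A list score is the mean over genes of the log2 signal minus that gene's mean over the 4 arrays. For the 6 measured members that are not chemokines it was -0.10 and -0.64 on intact and 0.38 and 0.36 on splenectomized replicates 1 and 2. For 10 detected of 12 monocyte and macrophage markers it was -0.53 and -0.28 against 0.45 and 0.36. The summed macrophage signals were 6564 and 7208 in intact and 12872 and 13092 in splenectomized mice. Csf1r, the receptor that macrophages need to survive, was at 1844 and 1847 against 3159 and 3284, and C1qb, a complement gene of macrophages, at 933 and 1032 against 1992 and 2204. Subtracting the macrophage score from the neutrophil score left 0.04 ± 0.56 for the intact arrays and -0.04 ± 0.05 for the splenectomized arrays (SD, n = 2 each), a difference of -0.07. The intact pair alone spans more than that, and the difference was 0.32 without intact replicate 1 and -0.47 without intact replicate 2. At this spread, no difference in size between the neutrophil genes and the macrophage markers could be resolved in either direction.

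The chemokine score, over Cxcl1, Cxcl2 and Cxcl5, was -0.12 and -0.93 in intact and 0.52 and 0.53 in splenectomized mice. Subtracting the neutrophil score from it left -0.16 ± 0.20 for the intact arrays and 0.16 ± 0.02 for the splenectomized arrays (SD, n = 2 each), a difference of 0.31 with no overlap. The log2 fold change was 1.61 for Cxcl2, 0.85 for Cxcl1 and 0.68 for Cxcl5, beside a difference of 0.735 in the neutrophil score. The higher chemokine score thus came mostly from Cxcl2 and was not shared by the 3 genes. With 1 array left out, the difference between the 2 scores ranged from 0.17 to 0.45. No test was run on it.

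Markers of stressed surface epithelium were split. All 10 were detected and higher in splenectomized mice, 5 with no overlap (21.7% of all genes) and 5 at an unadjusted p under 0.05 (7.07% of all genes), and 0 at the adjusted threshold in limma. Their scores were -0.15 and -1.28 in intact and 0.94 and 0.49 in splenectomized mice. Of the 10 genes 5 were lower on intact replicate 2 than on replicate 1 and 5 were higher. Without Sprr1b they were -0.25 and -0.68 against 0.68 and 0.25. Sprr1b, a cornified envelope precursor, was at 121 and 0.7 in intact, with an Absent call on replicate 2, and at 705 and 455 in splenectomized mice. Krt6a, a keratin of wounded epithelium, was at 3375 and 4029 against 4457 and 3772, with overlapping groups. The summed signals were 10399 and 12188 in intact and 16387 and 13278 in splenectomized mice. Their part in the values of S100a8, S100a9, Lcn2 and Cxcl5 was not tested.

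Markers of other granulocytes were mostly undetected and mixed in direction. Of 10 eosinophil, mast cell and basophil genes, 4 were detected, with sums of 1332 and 1826 in intact and 1586 and 1541 in splenectomized mice. By mean log2 signal 3 of them were higher, all with overlapping groups, and 1 was lower. Most of each sum was Cpa3. Cpa3, a mast cell protease, was at 1250.4 and 1726 against 1513 and 1447. Siglecf, an eosinophil receptor, was lower with no overlap, at 49.0 and 39.1 against 27.3 and 25.1 (adjusted p = 0.624). Prg2, an eosinophil granule protein, had signals of 6.8 to 12.4 and was Present on 1 array, and Epx was Absent on all 4.

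**Figure D4:**
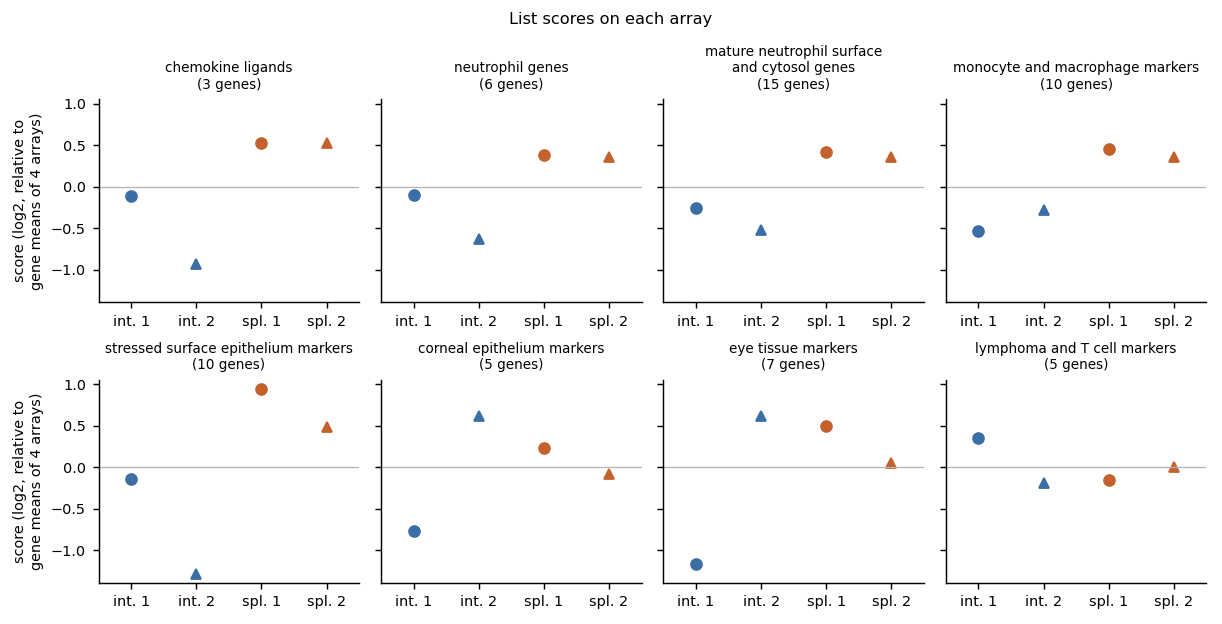
Score of each list (mean log2 signal relative to each gene's mean over the 4 arrays) on intact replicates 1 and 2 (blue) and splenectomized replicates 1 and 2 (orange), circles for replicate 1 and triangles for replicate 2. The chemokine, neutrophil, mature neutrophil, macrophage and stressed surface epithelium scores are higher on both splenectomized arrays. The eye tissue score is lowest on intact replicate 1 (-1.17) and highest on intact replicate 2 (0.62).

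Among 11415 genes Present on all 4 arrays, those nearest to S100a8 in their centred log2 signals over the 4 arrays were Rnase6, Il1b and Cd14, at Euclidean distances of 0.09, 0.13 and 0.145 on the log2 scale. Il1b, which encodes interleukin 1 beta, was at 1768 and 886 in intact and 2794 and 2582 in splenectomized mice. Those nearest to Cxcl2 were Acod1, G0s2 and Gzma, at 0.13, 0.19 and 0.23. Acod1, which makes itaconate in activated macrophages, was at 742 and 412 against 1738 and 1545. The 4 arrays give few ways to differ, so such nearness is a description of these arrays.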

How the data were processed

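Total RNA of 4 tumour-bearing eyes was measured on Affymetrix mouse arrays, from aRNA made of 500 ng of RNA per the labels' protocols. The authors deposited linear signal intensities and detection calls, made with GCOS 1.4 and MAS5 per the submitters' processing notes. No source used here gives the target to which arrays were scaled. The detection calls (Present or Absent) are 1 letter per array per the file headers. Of 45101 probe sets, 53.2% to 58.5% were Present per array, 34945 had 1 gene symbol and 932 had several, which name no gene here. The precision of every value is limited by the number of arrays.

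The deposited signals were raised to 0.1 where lower and log2-transformed, with nothing added. Probe sets Present on at least 2 arrays (26285) were fitted together in limma 3.58.1 under R 4.3.3 (lmFit, eBayes with an intensity trend, 2 residual degrees of freedom). P-values were two-sided, adjusted by the Benjamini-Hochberg method over all of them. In lists, a gene stands for the brightest of its detected probe sets (mean log2). A fold is 2 raised to the difference between the group means of log2 signals. The fit was tested on simulated data. Figures used matplotlib 3.10.9.

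The members and lists were chosen with earlier results of these data known. From each pathway list the rule named the 2 genes with the smallest p and the one with the highest mean signal. From each marker list it named fixed defining genes and the gene with the largest change. Rnase6 and the others near S100a8 and Cxcl2 come from a rule on distance. Epx, Elane, Mpo, Prtn3, Csf3, Il6, Ngp, Krt14, Ltf, Gfi1, Il17a, Il17ra and Cxcr4 fall outside the rule and were chosen with their values in view.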

Additional observations from a re-analysis of the deposited data

How the results depend on the processing

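Under other scalings (median centring, quantile normalization), a pseudocount or floor of 6.1 (the median Absent signal), no intensity trend, other detection filters, a replicate block, 1 probe set per gene and no probe sets of the suffixes _x_at, _s_at or _a_at, 0 member probe sets were called and every member probe set tested stayed higher in splenectomized mice. The labels do not say whether same-numbered arrays belong together. The deviations of these arrays from the group means correlated at -0.33, which cannot settle it with 1 pair per group. The replicate block gave 0 called members. A block with the numbers crossed, chosen after seeing the data, gave 3 (Cxcl2, S100a8 and Lcn2), among 358 called of all 26285 probe sets. With 1 array left out, every member probe set stayed higher in splenectomized mice. Calls of such fits are not given, because 1 group then has only 1 array. A fit without an intact array takes its spread from the splenectomized pair, whose arrays differed less (SD of the log2 difference 0.47 against 0.74), and assumes that the lone intact array varies like them. With 1 array left out, the fold ranged from 2.37 to 3.95 for Cxcl2 and from 1.60 to 3.18 for S100a8. It was 1.53 to 2.14 on Cxcl1 1419209_at and 1.86 to 3.42 on 1457644_s_at. For Cxcl5 it was 1.05 to 2.45, for S100a9 1.28 to 2.31 and for Lcn2 1.43 to 2.15.

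The median log2 fold change of the member genes was 0.36 to 1.10 when 1 array was left out. The neutrophil minus macrophage difference of -0.07 ranged from -0.47 to 0.32, turning positive without intact replicate 1. The cause was not tested. Over single probe sets, 0 of 160 alternative values changed sign. At an unadjusted p under 0.05 in limma there were 6 member probe sets, among 2120 of all 26285 tested. Without the _x_at, _s_at and _a_at probe sets there were 3 of 8, among 1458 of all 19421.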
